A study of Mus musculus with 8 samples.

Results

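The comparison described here sets 3T3-L1 cells carrying an shRNA against Maf1 (shMaf1) against 3T3-L1 cells carrying an empty shRNA vector (control), both at day 2 of adipocyte differentiation. Its members were the 2 libraries with these labels, out of 8 in the series, with counts for 31252 genes in each library. 3T3-L1 is a mouse fibroblast line that becomes adipocyte-like after growth arrest and hormonal induction. Both cultures had spent 2 days with insulin (10 µg/mL), the glucocorticoid dexamethasone (2 µM), the phosphodiesterase inhibitor IBMX (0.5 mM) and ascorbic acid (25 µg/mL). The labels give no number of shRNA sequences, clones or independent cultures behind a library. Knockdown of Maf1 and any other difference between the knockdown line and the control line therefore cannot be told apart. The study also sampled shMaf1 and control cells at day 0, before the cocktail, and that pair shares no library with the day 2 pair.

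Maf1 is a conserved repressor of RNA polymerase III, the enzyme that makes tRNA, 5S rRNA and other short noncoding RNAs. It binds the polymerase and keeps it from the initiation factor TFIIIB, whose subunit is Brf1. Adipocyte differentiation in this line runs through an early wave of C/EBP factors to Pparg and Cebpa. These switch on genes of lipid storage, while many but not all preadipocyte, matrix and contractile genes are lowered. The question was which messenger RNAs differ between Maf1 knockdown and control cells during the first days of this programme.

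Each group held 1 library, so no difference below has a replicate check and none was tested. The day 2 libraries held 30041275 gene counts for shMaf1 and 30791487 for control. Levels are given as CPM, counts scaled to library size with TMM factors and not divided by gene length, so levels of different genes are not compared. Differences are log2 ratios of CPM, shMaf1 over control, with 0.5 CPM added to both sides. Parentheses after a fold give its 95% counting interval, which covers counting error only. The score for 3′ bias of coverage was 0.08 in shMaf1 and 0.15 in control, the share of duplicate reads 26.4% and 26.6%, and the share of reads on ribosomal RNA 0.93% and 0.89%. Ambiguous reads made up 47.9% in shMaf1 and 47.6% in control, and the mean insert size was 165 and 158. Spike-in reads amounted to 9.99 per 1000 gene counts in shMaf1 and 10.97 in control. The part of these in the differences was not tested.

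All 9 fibroblast and preadipocyte markers reached 1 CPM, with summed levels of 16120 CPM in shMaf1 and 11847 CPM in control. Their members did not move as a block. Dlk1, a secreted inhibitor of adipogenesis, and Cd34 were higher in shMaf1, whereas the surface markers Thy1 and Ly6a were lower. Thy1 stood at 59.2 CPM in shMaf1 and 222 CPM in control, and Ly6a at 273 CPM in shMaf1 and 959 CPM in control. The 6 mature adipocyte markers summed to 26.3 CPM in shMaf1 and 137 CPM in control. None of 6 macrophage, 5 endothelial or 5 epithelial markers reached 1 CPM in either library, and the macrophage gene Emr1 had 0 counts in both. Of 7 bone and cartilage markers 3 reached it. Sox9 had 42.5 CPM in shMaf1 and 29.5 CPM in control, and Runx2 had 21.7 CPM in shMaf1 and 16.2 CPM in control. Alpl was lower, at 2.17 CPM in shMaf1 and 7.12 CPM in control. In bulk RNA, fewer cells of a type and less RNA per cell cannot be told apart.

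Maf1 (chr15:76351294-76354378 in mm10) had 352 counts in the shMaf1 library and 1772 in the control library, or 12.0 CPM and 59.8 CPM, a level 5.00-fold lower (4.45 to 5.62). At day 0 it stood at 13.1 CPM in shMaf1 and 55.8 CPM in control. The targeted messenger was therefore low in both libraries labelled shMaf1. Of the 32 listed genes for polymerase III subunits, factors and regulators, all were measured at a mean of 1 CPM or more. Their median difference was -0.06 on the log2 scale, and Maf1 and Polr3g were the only members at least 2-fold apart on that scale. Polr3g encodes an alternative polymerase III subunit found in undifferentiated and dividing cells. It had 3.74 CPM in shMaf1 and 8.70 CPM in control, 2.33-fold lower (1.86 to 2.94). Its paralog Polr3gl, the subunit of differentiated cells, had 14.3 CPM in shMaf1 and 22.2 CPM in control, 1.55-fold lower (1.37 to 1.76).

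The remaining polymerase III genes lay closer together. The TFIIIB subunits Brf1, Bdp1 and Tbp differed by -0.13, -0.04 and 0.09 on the log2 scale. Brf1 itself had 25.3 CPM in shMaf1 and 27.8 CPM in control, and its fold interval reached below 1 (0.993 to 1.21). The largest subunit genes Polr3a and Polr3b differed by 0.04 and 0.06. Gtf3c3, a subunit of the DNA-binding factor TFIIIC, had the highest positive value of the list at 0.33. With spike-in scaling the list median was 0.10 instead of -0.06, within a shift of 0.15 for the median of all genes. Genes that use or process tRNA were likewise near the middle, with none of 41 tRNA synthetase genes and none of 57 tRNA processing and modification genes 2-fold apart. The noncoding polymerase III products Rmrp and Rpph1 had 7 and 5 counts in shMaf1 and 6 and 5 counts in control. Too few reads fell on these 2 genes for a comparison.

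A gene was counted as different when its log2 difference was at least 1 in size and its higher level at least 1 CPM. Among 12233 genes that reached 1 CPM in either library, 559 were higher in shMaf1 (4.57%) and 426 were lower (3.48%). With spike-in scaling the split was 718 higher and 288 lower. A difference of at least 4-fold on this scale was found in 125 higher and 62 lower genes, and one of at least 8-fold in 23 and 14. Among genes that reached 5 CPM in either library, those nearest to the limit on the higher side were Wee1 and Zfhx4, both at 1.002 inside it, and Kif20b at 0.997 outside it. On the lower side they were Tspan4 inside it, with 74.3 CPM in shMaf1 and 149 CPM in control, and Rgs2 outside it, with 203 CPM in shMaf1 and 407 CPM in control. At day 0 the same rule gave 320 higher (2.6%) and 125 lower (1.02%) of 12310 genes. Of the day 2 genes, 98 were higher on both days and 59 lower on both days, while 12 were higher at day 2 and lower at day 0 and 6 the reverse.

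**Figure D1:**
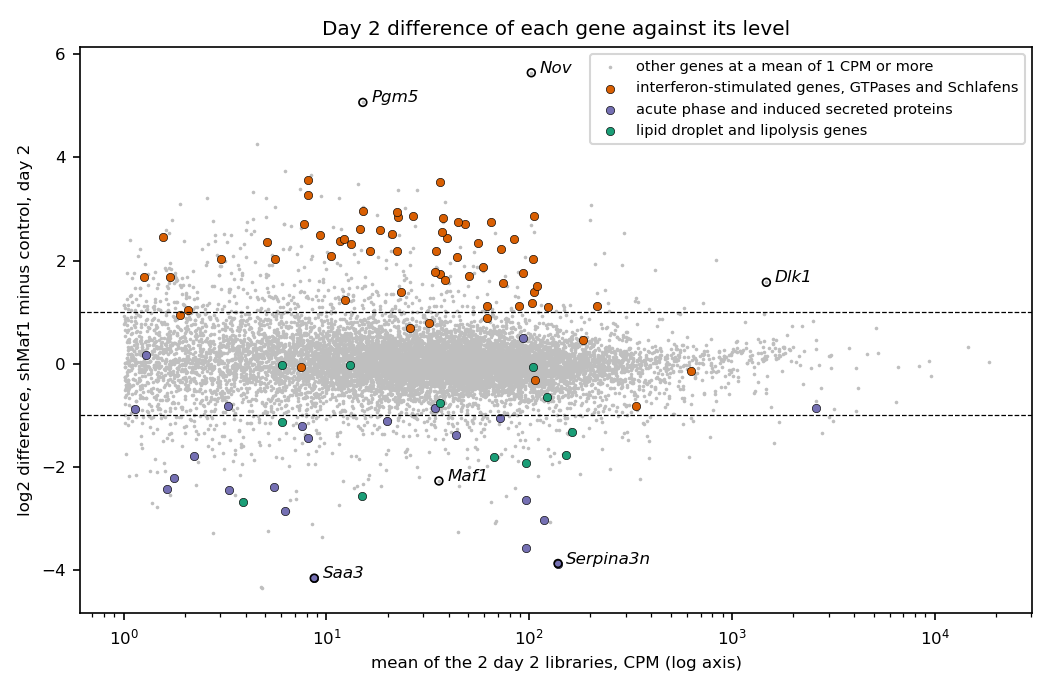
Log2 difference between shMaf1 and control at day 2 (y axis) against the mean CPM of both libraries (x axis, log scale), 1 point per gene at a mean of 1 CPM or more, with dashed lines at 1 and -1. Interferon-stimulated genes lie mostly above the upper line, acute phase and lipid droplet genes mostly on the lower side, and Maf1 at -2.27.

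Gene lists, 62 in number, were described by those members whose mean over both libraries reached 1 CPM. Over all 12017 genes that did so, 515 were higher (4.29%), 394 were lower (3.28%) and the median difference was 0.00. The highest medians were those of type I interferon-stimulated genes and of interferon-inducible GTPases and Schlafens, and the lowest those of acute phase and lipid droplet genes. Several lists with medians near 0, such as collagens and matricellular genes, held members far apart in both directions.

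**Figure D2:**
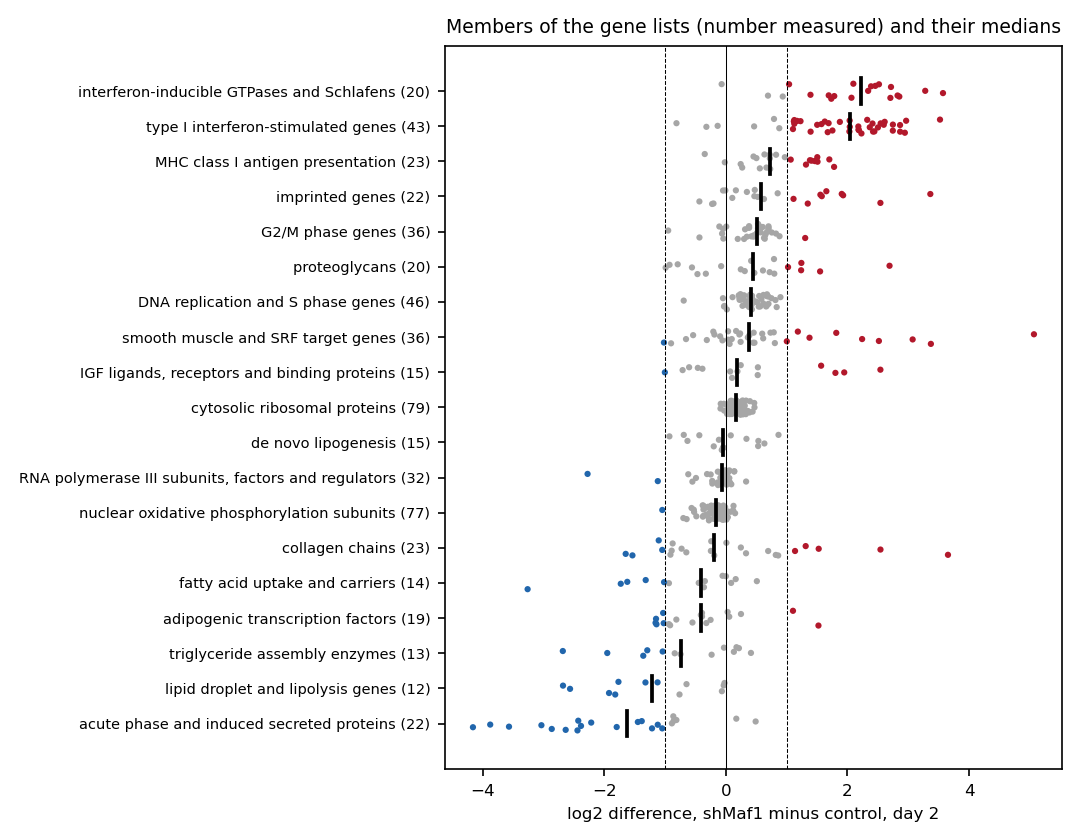
Log2 difference between shMaf1 and control at day 2 (x axis) for every measured member of 19 gene lists (rows, number measured in parentheses), with red and blue points past 1 and -1 and a black bar at the list median. Medians run down to -1.62 for acute phase genes and up to 2.22 for interferon-inducible GTPases and Schlafens.

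Type I interferon-stimulated genes were mostly higher in shMaf1. Of 43 measured members, 37 were higher in shMaf1 and none was lower, with a median difference of 2.04. Summed levels were 4210 CPM in shMaf1 and 2275 CPM in control. These genes encode antiviral proteins that interferon induces. Ifit3 (chr19:34583529-34588982), which binds foreign RNA with its family members, had 67.2 CPM in shMaf1 and 5.40 CPM in control, 12.5-fold higher (10.6 to 14.7). Isg15, a ubiquitin-like modifier, had 113 CPM in shMaf1 and 16.4 CPM in control, 6.89-fold higher (6.26 to 7.59). Usp18, the protease that removes Isg15 from proteins, had 39.7 CPM in shMaf1 and 4.72 CPM in control. The modifier and its protease were thus apart in the same direction.

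The dynamin-like antiviral GTPases Mx1 and Mx2 were also higher. Mx1 had 77.9 CPM in shMaf1 and 11.2 CPM in control, and Mx2 had 47.6 CPM in shMaf1 and 6.10 CPM in control. Sp100, a nuclear body protein, was 6.79-fold higher (5.56 to 8.36), and Lgals3bp, a secreted glycoprotein, was 2.17-fold higher (2.09 to 2.26). Some members were not higher. Ifitm3, a membrane protein that blocks viral entry, had 596 CPM in shMaf1 and 654 CPM in control, and Ifi27 had 94.9 CPM in shMaf1 and 119 CPM in control. Ifi204, a DNA sensor family member, had the lowest value of the list at -0.81. The 6 macrophage markers summed to 1.43 CPM in shMaf1 and 1.89 CPM in control.

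A second family of interferon-induced genes, the immunity-related GTPases, guanylate-binding proteins and Schlafens, had 17 of 20 measured members higher and none lower, with a median difference of 2.22. These GTPases act on the vacuoles of intracellular pathogens. Igtp had 65.8 CPM in shMaf1 and 8.87 CPM in control, 7.42-fold higher (6.52 to 8.48). Irgm2 had 84.2 CPM in shMaf1 and 12.5 CPM in control, 6.75-fold higher (6.05 to 7.55). Gbp3, a guanylate-binding protein, was 6.13-fold higher (5.22 to 7.23), and Slfn8, a Schlafen, 13.6-fold higher (9.55 to 20.03). Tgtp2 and Tgtp1 are near-identical copies, with 18.3-fold (12.3 to 28.6) and 8.22-fold (6.12 to 11.3) higher levels, and reads may have been split between them. The same uncertainty holds for other members of these clustered families. Slfn2 had 7.34 CPM in shMaf1 and 7.72 CPM in control.

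Promoter sequence, which the comparison did not use, was looked at for the interferon lists. The interferon-stimulated response element (ISRE) was searched on both strands as GAAA, any pair of bases, and GAAA again, in the 300 bases from 250 before to 50 after each RefSeq start site (GRCm38.p6), with overlapping matches kept. It was found in 14 of 27 higher type I genes with a promoter in the table (51.9%) and in 9 of 10 higher GTPase and Schlafen genes (90%). Among members not past the limit it was found in 1 of 4 type I genes and in 2 of 3 GTPase and Schlafen genes. In the antigen presentation list it was found in 2 of 7 higher members (28.6%) and 3 of 12 not past the limit (25%). In the interferon signalling list it was found in none of 4 higher members and in 3 of 14 not past the limit (21.4%). Among the 9306 expressed genes (mean of at least 1 CPM) with a promoter in the table, 3.64% held it. The type I and GTPase lists were made of known interferon-induced genes. A share above that of expressed genes therefore describes the lists and not the day 2 difference. A match describes letters and does not show binding. The windows below show 30 bases before the start site for 8 of these genes, 5′ to 3′ in the direction of the gene, with the element in capitals.
Ifit3 (chr19:34583397-34583426, plus strand): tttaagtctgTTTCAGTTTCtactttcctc
Gbp3 (chr3:142559995-142560024, plus strand): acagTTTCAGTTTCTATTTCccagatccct
Irgm1 (chr11:48871425-48871454, minus strand): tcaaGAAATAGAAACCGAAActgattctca
Igtp (chr11:58199512-58199541, plus strand): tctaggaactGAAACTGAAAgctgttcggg
Irgm2 (chr11:58214903-58214932, plus strand): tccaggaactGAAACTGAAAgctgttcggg
Tgtp2 (chr11:49064263-49064292, minus strand): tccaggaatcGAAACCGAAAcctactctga
Tgtp1 (chr11:48992304-48992333, minus strand): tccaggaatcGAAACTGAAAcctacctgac
Slfn8 (chr11:83020839-83020868, minus strand): atttgagcagTTTCGTTTTCcccaaaagca
The Igtp and Irgm2 windows shared 29 of 30 bases, and the windows of Tgtp2 and Tgtp1 shared 24 of 30. Gbp3 and Irgm1 each held 2 overlapping matches.

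The day 0 values placed these genes in a different order. At day 0 the median level of the 43 type I genes was 67.2 CPM in shMaf1 and 86.3 CPM in control. At day 2 it was 67.2 CPM in shMaf1 and 16.4 CPM in control. In the control cells 39 of 43 members were lower at day 2 than at day 0, against 24 of 43 in shMaf1 cells. The same share over all genes was not counted, and the 43 members were kept by their day 2 level alone. Ifit3 had 230 CPM in shMaf1 and 446 CPM in control at day 0. The GTPase and Schlafen list ran the same way, with median levels at day 0 of 48.4 CPM in shMaf1 and 74.9 CPM in control, and at day 2 of 33.0 CPM in shMaf1 and 6.83 CPM in control. At day 0 the list medians of the log2 difference were -0.52 and -0.38, and the difference between days was not tested.

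**Figure D3:**
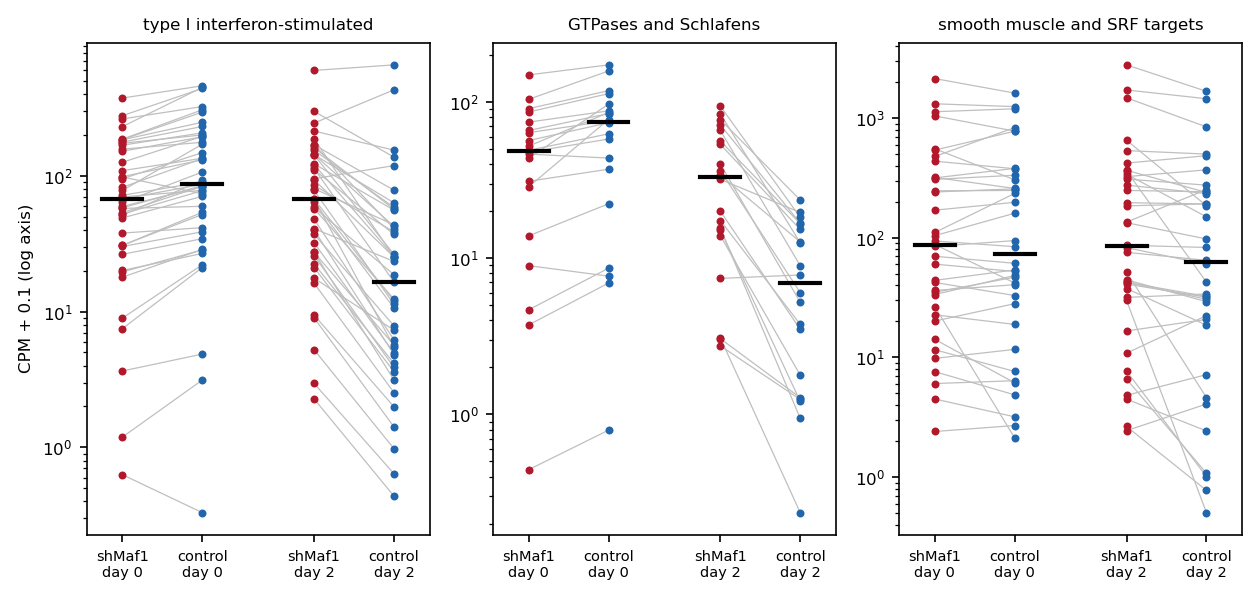
CPM plus 0.1 (y axis, log scale) of every measured member of 3 gene lists in shMaf1 (red) and control (blue) libraries at day 0 and day 2, with lines joining a gene within a day and black bars at the medians. In both interferon panels the shMaf1 median is below the control median at day 0 and above it at day 2.

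Genes of interferon signalling itself were mixed, with 4 of 21 measured members higher and 1 lower. Irf7, the factor that amplifies interferon production, had 69.2 CPM in shMaf1 and 7.45 CPM in control, 9.29-fold higher (8.08 to 10.7). The nucleic acid sensors Tlr3, for double-stranded RNA, and Mb21d1 (cGAS, for DNA) were 2.89-fold (2.48 to 3.38) and 2.52-fold (2.19 to 2.91) higher. The receptor subunit Ifnar1 had 113 CPM in shMaf1 and 112 CPM in control. Socs3, a feedback inhibitor of cytokine receptors, was 2.08-fold lower (1.99 to 2.17).

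Antigen presentation genes followed the interferon genes at smaller size, with 9 of 23 measured members higher, none lower, and a median of 0.73. The peptide transporter gene Tap1 had 136 CPM in shMaf1 and 39.4 CPM in control, 3.46-fold higher (3.25 to 3.70). The immunoproteasome subunits Psmb8 and Psmb9 were 2.92-fold (2.58 to 3.30) and 2.79-fold (2.36 to 3.31) higher. Nlrc5, the class I transactivator, was 2.61-fold higher (2.21 to 3.09). Class I heavy chains such as H2-Q4 and H2-T23, 3.31-fold and 2.96-fold higher, have close paralogs among which reads can be split.

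Chemokines differed in both directions, with 4 of 14 measured members higher and 3 lower. The interferon-induced Cxcl10 had 37.4 CPM in shMaf1 and 10.4 CPM in control, and the eosinophil attractant Ccl11 had 12.0 CPM in shMaf1 and 1.45 CPM in control. Ccl2, which attracts monocytes, was 2.17-fold higher (2.03 to 2.33). Cxcl13, a B cell attractant, was at the other end with 13.9 CPM in shMaf1 and 122 CPM in control, 8.81-fold lower (7.95 to 9.78). Cxcl12 had 407 CPM in shMaf1 and 884 CPM in control.

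Lipid storage genes were lower in the knockdown library. Of 12 measured lipid droplet and lipolysis genes, none was higher and 7 were lower, with a median difference of -1.22, and all 12 values were below 0. Cidec, which enlarges lipid droplets, had 3.98 CPM in shMaf1 and 25.9 CPM in control. Pnpla2 (ATGL), the lipase that starts triglyceride breakdown, had 29.4 CPM in shMaf1 and 105 CPM in control, 3.57-fold lower (3.31 to 3.86). Abhd5, its coactivator, was 2.51-fold lower (2.399 to 2.62), and G0s2, its inhibitor, 10.4-fold lower (6.55 to 17.3). Lipase, coactivator and inhibitor thus lay on the same side. The droplet coat gene Plin4 had 69.0 CPM in shMaf1 and 236 CPM in control, while Plin3, a coat protein of most cells, had 102 CPM in shMaf1 and 107 CPM in control. At day 0 the list median was -0.11.

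Fatty acid uptake and triglyceride assembly had the same direction in part. Fabp5, a fatty acid carrier, had 61.0 CPM in shMaf1 and 203 CPM in control, 3.33-fold lower (3.16 to 3.51). Acsl1, which activates fatty acids with coenzyme A, was 3.10-fold lower (2.91 to 3.30), but Acsl3, of the same enzyme family, was not lower, with a log2 difference of 0.51. Of 14 uptake genes 5 were lower and none higher. In triglyceride assembly 5 of 13 were lower and none higher. Gpd1, which makes glycerol 3-phosphate, had 17.1 CPM in shMaf1 and 112 CPM in control, 6.57-fold lower (5.98 to 7.23). The final acyltransferases Dgat1 and Dgat2 were 2.47-fold (2.29 to 2.68) and 2.66-fold (2.29 to 3.09) lower, and the acyltransferase Agpat9 4.34-fold lower (3.44 to 5.53).

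Fatty acid synthesis did not share this pattern, with none of 15 measured members 2-fold apart and a median of -0.05, which was 0.11 with spike-in scaling. Fasn, the fatty acid synthase, had 463 CPM in shMaf1 and 485 CPM in control, and Acly, which supplies its substrate, had 304 CPM in shMaf1 and 329 CPM in control. The desaturase Scd1 was lowest at -0.93 and the desaturase Fads2 highest at 0.87. Cholesterol synthesis genes had a median of 0.07, and the 2 members of that list past the limit were exporters and not enzymes. Abcg1 had 1.19 CPM in shMaf1 and 11.7 CPM in control, 9.81-fold lower (6.92 to 14.3), and Abca1 58.9 CPM in shMaf1 and 163 CPM in control. Both are known targets of the liver X receptor. Nr1h3, which encodes a form of this receptor, had 4.82 CPM in shMaf1 and 11.4 CPM in control. Whether these differences are linked was not tested.

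Secreted adipocyte products lay on the lower side. All 7 measured adipokines had values below 0, and 3 of them were past the limit. Angiotensinogen (Agt) had 37.3 CPM in shMaf1 and 139 CPM in control, 3.74-fold lower (3.50 to 3.999), while its type 2 receptor gene Agtr2 had 350 CPM in shMaf1 and 50.2 CPM in control, 6.98-fold higher (6.61 to 7.37). Adipoq, which encodes adiponectin, had 10.3 CPM in shMaf1 and 19.7 CPM in control. Adipsin (Cfd) had 6 counts in shMaf1 and 55 in control.

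Among adipogenic transcription factors 5 of 19 measured members were lower and 2 higher. Cebpa, a core factor of the programme, was lower, with a difference of -1.14 on the log2 scale. Stat5a, a cytokine-driven activator, was 2.04-fold lower (1.92 to 2.17) and Nr1h3 2.36-fold lower (1.93 to 2.89). The coactivator genes were split. Ppargc1a, linked to mitochondrial and brown fat programmes, had 10.5 CPM in shMaf1 and 3.34 CPM in control, 3.16-fold higher (2.51 to 3.997), and its relative Ppargc1b was 2.63-fold lower (1.66 to 4.31). At day 0 Ppargc1a had 25.8 CPM in shMaf1 and 12.9 CPM in control, which did not pass the limit. Of 23 measured preadipocyte markers and inhibitors of adipogenesis 4 were higher and 2 lower, with a median of 0.12. The lower members were Thy1 and Ly6a. Among the inhibitors Gata2 and Gata3, which restrain Pparg, were 2.54-fold (2.14 to 3.03) and 2.22-fold (1.66 to 2.98) higher. In the insulin pathway list 3 of 18 were lower and none higher: the caveolae genes Cav1 and Cav2, and the insulin-regulated glucose transporter Slc2a4, with 20 counts in shMaf1 and 83 in control.

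**Figure D4:**
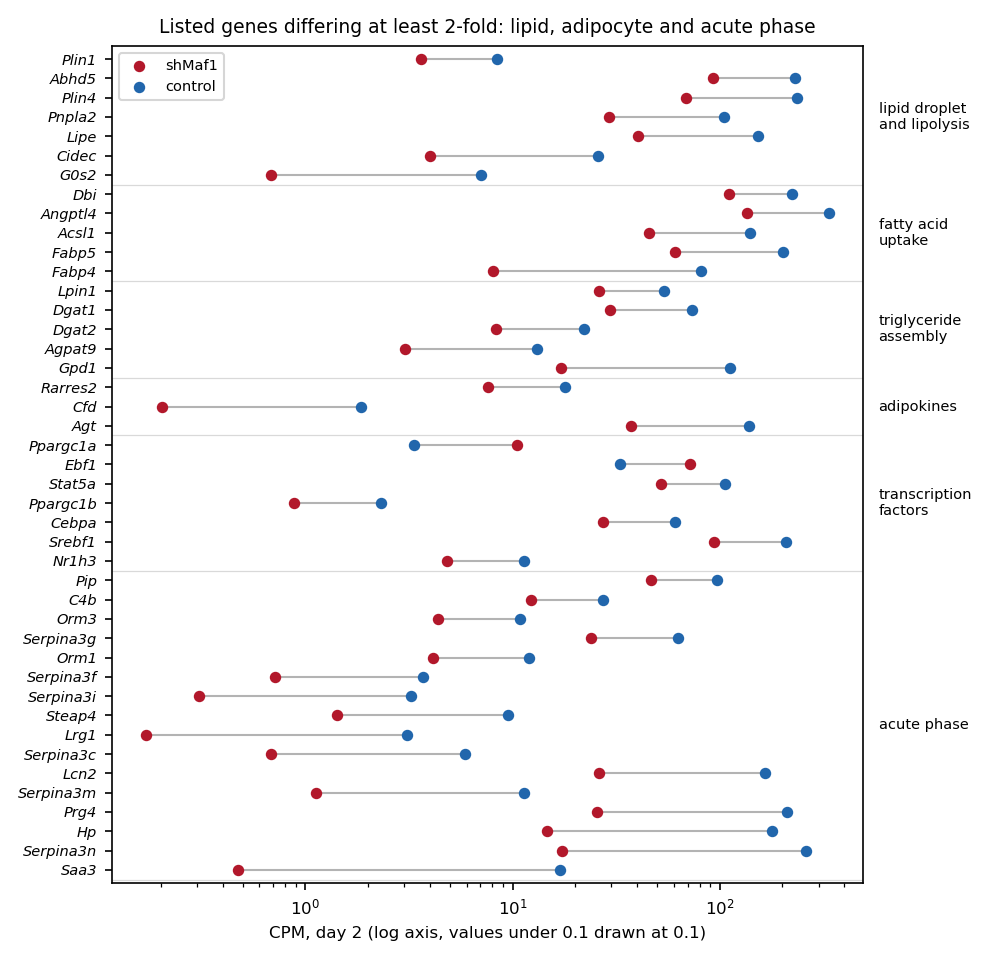
CPM at day 2 (x axis, log scale) in shMaf1 (red) and control (blue) for members of 6 lists that differ at least 2-fold on the log2 scale. Red points lie left of blue points for every gene except Ppargc1a and Ebf1.

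Acute phase and induced secreted proteins were the lowest list, with 16 of 22 measured members lower, none higher and a median of -1.62. Their summed level was 2170 CPM in shMaf1 and 4569 CPM in control. The list was written with earlier results of these data known, and its members were kept by their mean level at day 2. A member high in control alone could pass that floor, so the counts describe the list. Serpina3n (chr12:104406708-104414329), a serine protease inhibitor, had 17.3 CPM in shMaf1 and 260 CPM in control, 15.1-fold lower (13.8 to 16.5). Other Serpina3 genes lie beside it and resemble it, so reads may be shared among them. Lcn2, an iron-siderophore binding lipocalin, had 26.3 CPM in shMaf1 and 166 CPM in control. Prg4, the lubricant proteoglycan of joints, had 25.5 CPM in shMaf1 and 212 CPM in control, 8.33-fold lower (7.72 to 8.99). Most of the list was scarce at day 0, when 9 members were measured and Lcn2 had 0.374 CPM in shMaf1 and 0.462 CPM in control. Of the 22 members 2 had values above 0, the higher being ceruloplasmin (Cp) at 0.49, and complement C3 had 1853 CPM in shMaf1 and 3359 CPM in control.

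Genes of the NF-kB pathway and inflammatory targets, taken as 1 list, differed less. Of 25 measured genes 3 were lower and 2 higher, with a median of -0.34. Nfkbiz, a nuclear regulator needed for Lcn2 induction, was 2.43-fold lower (2.23 to 2.64), and Sod2, the mitochondrial superoxide dismutase, 2.46-fold lower (2.35 to 2.59). Lif, a cytokine of the interleukin-6 family, was 4.67-fold higher (2.82 to 8.12) from 88 counts in shMaf1 and 19 in control.

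Contractile genes were higher in part. Of 36 measured smooth muscle and SRF target genes 9 were higher and 1 lower, and the median was 0.37. Acta2, smooth muscle actin (chr19:34240336-34255373), had 361 CPM in shMaf1 and 42.5 CPM in control, 8.50-fold higher (8.01 to 9.01). Tagln, an actin-binding protein of smooth muscle, was 8.32-fold higher (5.57 to 12.9) and the enteric actin Actg2 6.64-fold higher (4.47 to 10.2). Tpm1, a tropomyosin, had 652 CPM in shMaf1 and 185 CPM in control, 3.53-fold higher (3.42 to 3.64). The span of Tagln overlaps a transcript, AK196096, with 0 counts in shMaf1 and 22 in control, while Tagln had 223 counts in shMaf1 and 27 in control, so its fold is uncertain. Actb, the cytoplasmic actin of all cells, differed by 0.24. Zyx, a focal adhesion protein, had 248 CPM in shMaf1 and 242 CPM in control. Of 5 skeletal muscle markers 4 had 0 counts in both libraries, and the fifth, Des, had 2.34 CPM in shMaf1 and 3.98 CPM in control.

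Pgm5, a phosphoglucomutase relative of muscle adhesion plaques, had 878 counts in shMaf1 and 12 in control, 73.7-fold higher (42.0 to 143). It was already 13.1-fold higher (10.3 to 17.0) at day 0, with 26.4 CPM in shMaf1 and 2.02 CPM in control. Acta2 by contrast had 553 CPM in shMaf1 and 305 CPM in control at day 0. The level of Acta2 in control was much lower at day 2 than at day 0, and that in shMaf1 less so. The CArG box, the element bound by SRF, was searched as CC, 6 bases of A or T, and GG in the same promoter windows. It was found in 9 of 30 members of the list with a promoter (30%) and in 1.58% of the 9306 expressed genes. The list was made with known SRF targets, so this share too describes the list and not the day 2 difference. The windows of 2 higher members with the box in capitals are these.
Myl9 (chr2:156775293-156775322, plus strand): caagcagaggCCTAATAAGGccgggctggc
Cnn2 (chr10:79988534-79988563, plus strand): cgcttccacgCCTTATAAGGacatttgctc
Myl9, a myosin light chain, was 11.4-fold higher (9.54 to 13.7), and Cnn2, a calponin, 2.28-fold higher (2.20 to 2.36). Among members of the list that were not past the limit 6 of 23 with a promoter held the box (26.1%), as did its 1 lower member, Fhl1, named here after its values were seen.

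Collagen genes differed in both directions. Of 23 measured chains 5 were higher and 4 lower, with a median of -0.19, which was 0.17 without the floor on level. Col8a1, a network-forming chain of vessel and eye matrix, had 15.97 CPM in shMaf1 and 0.809 CPM in control, 19.7-fold higher (13.1 to 31.1), and the fibrillar Col11a1 5.95-fold higher (5.45 to 6.51). Col1a2, a chain of the main fibrillar collagen, differed by 0.70. On the lower side were the basement membrane chain Col4a2, with 825 CPM in shMaf1 and 2393 CPM in control, 2.90-fold lower (2.86 to 2.94), and Col6a2, 2.15-fold lower (2.13 to 2.17). Col4a5, another type IV chain, was higher at 201 CPM in shMaf1 and 91.1 CPM in control. The laminin chain Lama5 was 6.41-fold lower (5.28 to 7.83). Col4a2 and Lama5 were lower at day 0 as well, at 369 CPM and 8.06 CPM in shMaf1 and 834 CPM and 20.9 CPM in control.

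Of 20 measured members of the proteoglycan list 5 were higher and none lower. Prg4, a proteoglycan counted with the acute phase list and not here, was lower. The summed level of the proteoglycan list was 9429 CPM in shMaf1 and 10393 CPM in control. Ogn (osteoglycin) had 177 CPM in shMaf1 and 26.9 CPM in control, 6.56-fold higher (6.09 to 7.08), although at day 0 it had 401 CPM in shMaf1 and 345 CPM in control. Kera (keratocan) was 2.55-fold higher (2.04 to 3.20). Bgn (biglycan) and Vcan (versican) differed by -0.08 and -0.47.

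Matricellular and elastic fibre genes held some of the largest differences of the whole table, with 9 of 33 measured members higher and 5 lower. Tnmd (tenomodulin, chrX:133851008-133865578), a tendon membrane protein, had 266 counts in shMaf1 and 0 in control, at least 89.3-fold higher against a floor of 3 counts. Mfap2 and Mfap4, of elastin microfibrils, were 22.4-fold (12.3 to 45.4) and 12.7-fold (8.39 to 20.2) higher. Thbs1 (thrombospondin) had 452 CPM in shMaf1 and 119 CPM in control. Within the CCN family the directions were opposite. Nov (CCN3, chr15:54745928-54753761) had 201 CPM in shMaf1 and 3.54 CPM in control, 56.8-fold higher (46.9 to 69.6), and Wisp2 (CCN5) had 14.3 CPM in shMaf1 and 123 CPM in control, 8.55-fold lower (7.73 to 9.48). Fibronectin (Fn1) was 2.05-fold lower (2.03 to 2.07) and also lower at day 0, with 1676 CPM in shMaf1 and 3554 CPM in control.

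Matrix-remodelling enzymes differed both ways. Lox, which crosslinks collagen, had 1002 CPM in shMaf1 and 441 CPM in control. Of 25 metalloproteinases and inhibitors 4 were higher and 4 lower. The gelatinase Mmp9 was 3.76-fold higher (3.26 to 4.35), as was its membrane inhibitor Reck at 2.68-fold (2.45 to 2.95). Adam8 and Adamts15 were 4.04-fold (3.48 to 4.72) and 3.73-fold (3.43 to 4.06) lower. Mmp14 and Timp2, which together activate gelatinase A, differed by 0.07 and 0.28.

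**Figure D5:**
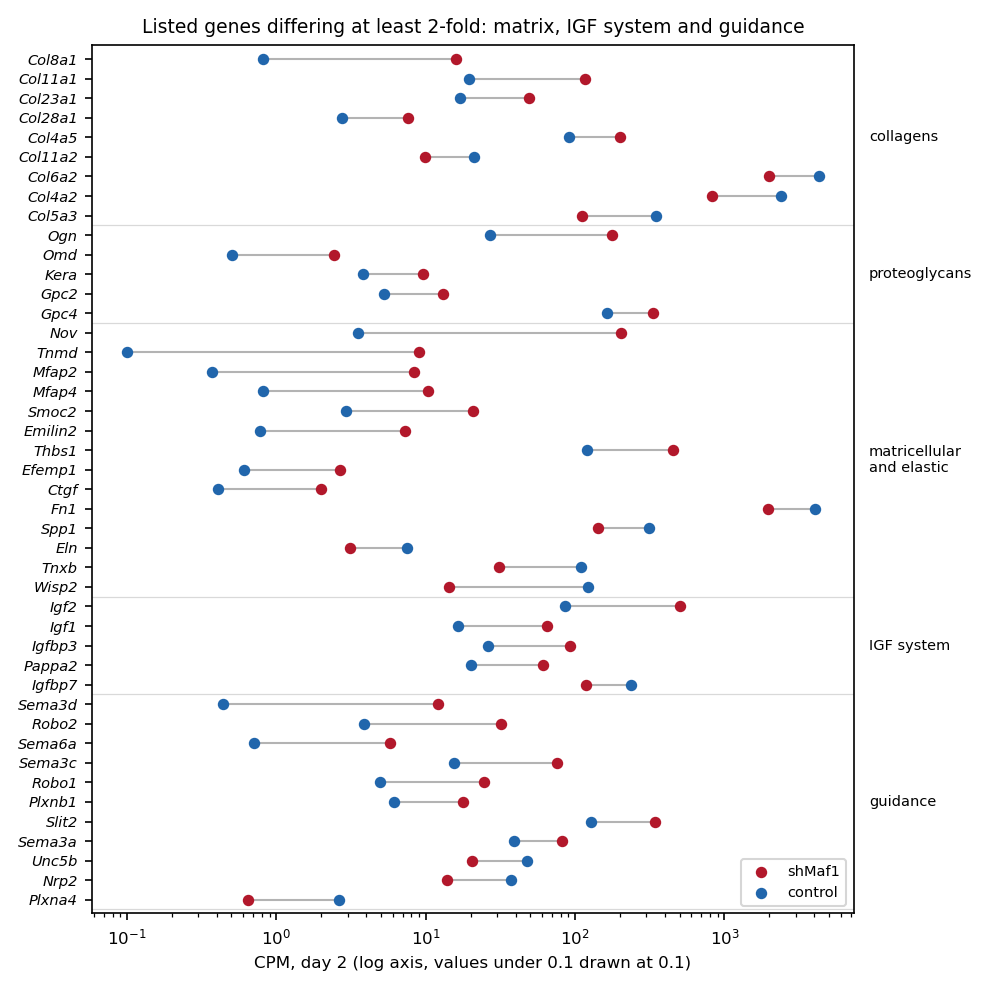
CPM at day 2 (x axis, log scale, values under 0.1 drawn at 0.1) in shMaf1 (red) and control (blue) for members of 5 lists that differ at least 2-fold on the log2 scale. Nov, Tnmd, Sema3d and Mfap2 show the widest gaps with shMaf1 on the right, and Wisp2 the widest with control on the right.

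Growth factor genes of the IGF axis were higher at the ligand level. Igf1 had 65.0 CPM in shMaf1 and 16.5 CPM in control, 3.94-fold higher (3.57 to 4.36), beside Igf2 at 502 CPM in shMaf1 and 85.8 CPM in control. The binding protein gene Igfbp3 was 3.54-fold higher (3.26 to 3.83), and Pappa2, a protease that cleaves IGF binding proteins, 3.01-fold higher (2.74 to 3.31). The receptor Igf1r differed by 0.07. In all, 4 of 15 measured IGF genes were higher and 1 was lower.

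Igf2 also belongs to the imprinted genes, of which 9 of 22 measured were higher and none lower, with a median of 0.58. Plagl1, a zinc finger factor, had 41.4 CPM in shMaf1 and 3.57 CPM in control, 11.6-fold higher (9.49 to 14.3). H19, a noncoding RNA next to Igf2, was 3.88-fold higher (3.42 to 4.40), and Peg3 3.83-fold higher (3.66 to 3.995). Rtl1, Rian and Dlk1, of the same imprinted cluster, were 4.74-fold (2.90 to 8.10), 4.53-fold (2.70 to 8.03) and 2.99-fold (2.94 to 3.03) higher. The span of H19 overlaps another transcript of the table, AK145379, with 39249 counts in shMaf1 and 9768 in control, so the level of H19 itself is uncertain. The RNA-level counts do not show which parental copy was read. At day 0 3 imprinted genes were higher, 1 was lower, and Plagl1 had 23.8 CPM in shMaf1 and 5.40 CPM in control.

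Wnt signalling genes were mainly on the higher side. Of 3 measured ligands, Wnt6 and Wnt5a were higher at 6.01-fold (5.15 to 7.04) and 2.49-fold (2.31 to 2.69), and Wnt4 was 3.61-fold lower (3.19 to 4.11). Axin2, a direct target of beta-catenin, had 65 counts in shMaf1 and 4 in control, 16.4-fold higher (6.10 to 61.9). Rspo2, which amplifies Wnt signals, and the inhibitor Apcdd1 were 4.52-fold (3.37 to 6.15) and 3.46-fold (3.18 to 3.76) higher. The effectors Ctnnb1 and Lef1 differed by 0.12 and -0.06. In all 4 of 24 receptors, antagonists and targets were higher and none lower.

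Of 29 measured TGF-beta genes 6 were lower and 2 higher, with a median of -0.06, or 0.10 with spike-in scaling. Tgfbi, a matrix protein induced by TGF-beta, was 2.81-fold lower (2.56 to 3.10). The ligand Tgfb1 and the latency proteins Ltbp2 and Ltbp3 were 2.09-fold, 2.08-fold and 2.13-fold lower. Among BMP genes, Id4 had 21.2 CPM in shMaf1 and 1.86 CPM in control, 11.5-fold higher (8.68 to 15.4), and Id3 was 2.09-fold lower (1.93 to 2.27). The extracellular regulator Bmper was 4.55-fold lower (4.27 to 4.85).

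Axon guidance molecules, many of which act on cell migration outside neurons, had 8 of 28 measured members higher and 3 lower. Sema3d had 12.1 CPM in shMaf1 and 0.438 CPM in control, 27.6-fold higher (15.9 to 52.3). The Slit receptors Robo1 and Robo2 were 5.01-fold (4.19 to 6.03) and 8.24-fold (6.77 to 10.1) higher, and their ligand Slit2 had 345 CPM in shMaf1 and 128 CPM in control. Robo2 was also higher at day 0, at 34.8 CPM in shMaf1 and 5.43 CPM in control.

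Targets of the hormones in the cocktail differed in both directions. Of 26 measured glucocorticoid targets 5 were higher and 6 lower, and 18 had values below 0, with a median of -0.36. Metallothioneins Mt1 and Mt2 were 3.56-fold (3.45 to 3.68) and 2.81-fold (2.72 to 2.90) lower, and Hsd11b1, which activates glucocorticoids, 2.18-fold lower (1.83 to 2.61). Hif3a and Pdk4, a kinase that slows glucose oxidation, were 3.90-fold (3.18 to 4.80) and 2.08-fold (1.96 to 2.21) higher. Fkbp5, a chaperone widely used as a glucocorticoid readout, had 327 CPM in shMaf1 and 516 CPM in control. Among cAMP-responsive genes 3 of 19 were higher, none lower, and the median was 0.10. Of 28 immediate early genes 1 was higher and 2 were lower. Egr3, a zinc finger factor, was the higher one at 57 counts in shMaf1 and 20 in control, and Junb had 36.6 CPM in shMaf1 and 128 CPM in control, 3.48-fold lower (3.26 to 3.73), and Jun was 2.27-fold lower (2.08 to 2.48).

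Cell cycle genes were slightly higher at day 2, mostly without passing the limit. Of 36 G2/M genes 30 had values above 0, with a median of 0.52, and Kif23, a kinesin of cell division, was the single member at least 2-fold higher, at 59.7 CPM in shMaf1 and 23.8 CPM in control. Of 46 replication genes 42 had values above 0, with a median of 0.42 and none past the limit. At day 0 the G2/M median was 1.38 and 34 of 36 members were higher in shMaf1. Top2a, the replication and mitosis topoisomerase, had 686 CPM in shMaf1 and 682 CPM in control at day 2. Of 19 measured histone genes, replication-dependent and variant, 6 were lower and none higher, with a median of -0.62. Among the lower ones was Hist1h2bc at 12.7 CPM in shMaf1 and 28.0 CPM in control. The summed level of the listed histone genes lay the other way, at 3188 CPM in shMaf1 and 2958 CPM in control. Most histone messengers lack a poly(A) tail, and this list was read from poly(A) libraries.

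Cytosolic ribosomal protein genes were narrowly grouped, with 75 of 79 above 0, a median of 0.17 and none past the limit. Ribosome biogenesis factors had 40 of 48 below 0 and a median of -0.24. Myc, a driver of that programme, differed by -0.93, and the pre-rRNA processing factor Bop1 by -0.89. Oxidative phosphorylation subunits had 69 of 77 below 0 with a median of -0.17, and Atp5l was the 1 member past the limit at 2.07-fold lower (1.98 to 2.16). Among mitochondrial ribosomal proteins, Mrpl43 was the 1 member past it, with 9.92 CPM in shMaf1 and 47.4 CPM in control, and was likewise low at day 0, at 10.1 CPM in shMaf1 and 30.9 CPM in control. Spike-in scaling moves the medians of these groups up by about the shift of all genes.

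In central metabolism, 2 of 27 glycolysis and lactate genes were lower and none higher. Ldha, which makes lactate, had 352 CPM in shMaf1 and 792 CPM in control, 2.25-fold lower (2.20 to 2.31), and the lactate transporter Slc16a1 was 2.13-fold lower (2.04 to 2.24). Gapdh differed by 0.16. Of 35 fatty acid oxidation and peroxisome genes 30 were below 0, and Acadm, the medium-chain dehydrogenase, was 2.41-fold lower (2.30 to 2.52). Pyruvate carboxylase (Pcx), which feeds citrate to lipid synthesis, had 226 CPM in shMaf1 and 512 CPM in control. Among antioxidant genes thioredoxin (Txn1) stood apart at 98.2 CPM in shMaf1 and 405 CPM in control, 4.13-fold lower (3.96 to 4.30), against 52.96 CPM in shMaf1 and 103 CPM in control at day 0.

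Several genes at the extremes belong to no list above. On the higher side Adh1, an alcohol and retinol dehydrogenase, had 27.5 CPM in shMaf1 and 2.90 CPM in control, 9.48-fold higher (7.58 to 12.0). Trpm5, a cation channel of taste cells, had 149 counts in shMaf1 and 3 in control, 50.04-fold higher (16.8 to 245). On the lower side Anxa8, an annexin, had 26.6 CPM in shMaf1 and 227 CPM in control, 8.51-fold lower (7.91 to 9.18). The vasopressin receptor gene Avpr1a had 3 counts in shMaf1 and 160 in control, 52.9-fold lower (17.8 to 259). Ctla2a, a cysteine protease inhibitor, was 6.04-fold lower (5.56 to 6.58), and Csf2rb, the common beta chain of interleukin-3 family receptors, 7.81-fold lower (5.76 to 10.8).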

How the data were processed

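RNA sequencing with a stranded kit for polyadenylated mRNA, per the labels' protocols, gave 1 library for each of 8 groups. Reads were aligned with STAR 2.4 to the mm10 mouse genome, per the submitters' processing notes. The counter and the gene annotation are not given in the sources used here. The authors deposited 1 value per gene and library without normalisation, and these values were handled like estimated counts rounded to whole numbers. That unit is read from the values and not stated. Library quality came from the deposited tables, which give percent of reads on ribosomal RNA, of duplicates and of ambiguous reads, the count of ERCC spike-in reads, a score for 3′ bias and, as another deposited value, the mean insert size, per the file headers. The deposited fold changes and p-values were not used. Start coordinates in the files count from 0, so 1 was added.

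Counts of the 8 libraries were scaled together by TMM (edgeR 4.0.16, R 4.3.3) and given as CPM. Log2 ratios used a pseudocount of 0.5 CPM. A gene was past the size rule at a log2 ratio of 1 or more in size and 1 CPM or more in either library. With 1 library per group the day 2 difference was not tested. Fold intervals are exact conditional (Clopper-Pearson) 95% intervals. No molecular identifiers were used, so counting error is all that intervals and floors cover. A library at 0 was set to a floor of 3 counts. The calculations, in Python 3.11.15, were tested on simulated data.

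Genes were named by a rule: the polymerase III list, the 20 highest and 20 lowest genes past the size rule that reach 5 CPM and are not predicted genes, and per list up to 8 members with the largest differences, 3 with the highest levels and 3 nearest to no difference. The 62 lists and the members were chosen with earlier results of these data known. Genes named as nearest to the limit, as cell type markers, as polymerase III transcripts or as moving opposite ways on the 2 days were chosen outside this rule. The values were recomputed with size factors of DESeq2 1.42.0, with ERCC scaling, with TMM over the 2 libraries, with library totals, with the floor on level at 5 CPM or removed, and with pseudocounts of 0.1 and 1. Promoters came from RefSeq (GRCm38.p6) and were matched by symbol.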

Additional observations from a re-analysis of the deposited data

Results flagged for a closer look

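Some results had opposite directions in the shMaf1 and control pairs at day 0 and day 2. The difference between days was not tested, since each group held 1 library. The median log2 difference of type I interferon-stimulated genes was 2.04 at day 2 and -0.52 at day 0, and that of interferon-inducible GTPases and Schlafens 2.22 at day 2 and -0.38 at day 0. Among single members past the size rule on both days, Ifi44, Rsad2, Oas1a and Oas1g differed by 2.23, 2.37, 2.04 and 1.68 at day 2 and by -1.13, -1.27, -1.45 and -1.15 at day 0. The GTPases Gvin1 and Iigp1 differed by 2.10 and 1.39 at day 2 and by -1.15 and -1.42 at day 0. Ifi44 had 121 CPM in shMaf1 and 25.3 CPM in control at day 2, and 77.7 CPM in shMaf1 and 170 CPM in control at day 0.

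Brms1 differed by -4.34 at day 2 and by 2.64 at day 0. It had 0 counts in shMaf1 and 286 in control at day 2, at least 94.6-fold lower against a floor of 3 counts, and 2.62 CPM in shMaf1 and 0 CPM in control at day 0. Its span overlaps 1 other gene of the table with counts, so the split of reads between them is uncertain. Anxa8, Bop1, Cd34, Id4 and Polr3gl also overlap genes with counts, each of these with at most 25 counts in a library.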

How the results depend on the processing

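No paired analysis of the day 2 difference was run, since the labels give no replicate numbers and each group held 1 library. Across the 8 alternatives, the number of genes higher in shMaf1 was 388 to 718 and the number lower was 288 to 508, against 559 and 426, and both stayed within 1.5 times. Spike-in scaling gave 718 higher and 288 lower, and moved the median of all genes by 0.15 on the log2 scale, so the split between directions depends on it. Named genes past the size rule lie too far from 0 for these alternatives to change their sign, so their signs were no check. With spike-in scaling 529 named genes moved by more than the counting error set by their intervals, and 222 did not. Under spike-in scaling the medians of several lists near 0 changed sign, among them polymerase III genes (0.10), tRNA synthetases (0.13) and mitochondrial ribosomal proteins (0.02). The collagen median was 0.17 without a floor, and the chemokine median -0.02 with DESeq2 size factors. With 1 library per group, depth sets the counting intervals, while variation between cultures is not measured.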

Other observations

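Position in the genome was compared with the size rule as a description. The share of genes past it was 5.7% to 11.5% per chromosome. Among all 12233 genes that reached 1 CPM in either library, 4.57% were higher and 3.48% were lower. Chromosome 12 had the highest share (14 higher and 34 lower of 416 genes). The X chromosome stood at 10.4% (32 higher and 11 lower of 412 genes). Whether any chromosome departs from the share of all genes was not tested. The Serpina3 cluster lies on chromosome 12, and its part in the share of that chromosome was not tested. On chromosome 10, of 11 measured genes around Mdm2, none was higher and 4 were lower. Their median was -0.66 at day 2 and -0.58 at day 0. Of all 12017 measured genes 3.28% were lower. The genes around Mdm2 were listed with earlier results of these data known, so their count describes the list and is no test of position. Nup107, a nuclear pore subunit, had 424 CPM in shMaf1 and 1132 CPM in control, and Yeats4, a chromatin reader, 156 CPM in shMaf1 and 419 CPM in control. Mdm2 itself, the ubiquitin ligase of p53, had 3161 CPM in shMaf1 and 2848 CPM in control.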
